A study of Mus musculus with 6 samples.

Results

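Classical MHC class I genes and the genes that load their peptides were examined in M-MDSCs, the monocytic subset of myeloid-derived suppressor cells. The set was a list of 10 gene symbols, and all 10 were found among the 34745 genes of the count table. It held 5 class I heavy chains (H2-K1, H2-D1, H2-Q4, H2-T23 and H2-M3), the light chain B2m, the peptide transporter subunits Tap1 and Tap2, the loading factor Tapbp and the regulator Nlrc5. RNA of 3 mTOR-/- and 3 WT libraries was compared by RNAseq. The mTOR-/- cells were labelled mTOR knock-out and came from Lyz-mTOR mice, which combine mTOR flox/flox alleles with Lyz-Cre, a recombinase driven by the lysozyme promoter that is active in monocytes, macrophages and neutrophils. The WT cells were labelled mTOR WT, and the wild-type C57BL/6 mice of the study's methods were bought from a supplier. Both groups carried the strain label C57BL/6 and the source label bone marrow. The study's methods describe marrow cells cultured with GM-CSF and IL-6 for the generation of MDSCs, and flow cytometric sorting. The methods give n = 3 for the mice, but their age and sex, and whether each library was 1 mouse, are not given in the sources used here, so p-values measure the spread between these libraries.

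MHC class I molecules display short peptides from inside the cell to CD8+ T cells. Cytosolic peptides are carried into the endoplasmic reticulum by the transporter of Tap1 and Tap2, and tapasin, the product of Tapbp, holds an empty heavy chain paired with beta-2-microglobulin (B2m) next to that transporter until a peptide fits. Nlrc5 is a transactivator that binds no DNA itself and raises class I, B2m and Tap1 transcription through factors on a shared promoter module, and interferon-gamma induces the whole pathway. On myeloid cells class I marks the cell as self to natural killer cells and presents antigen to T cells. H2-K1 and H2-D1 encode the classical K and D molecules, whereas H2-Q4, H2-T23 and H2-M3 encode non-classical ones with lower or more restricted expression.

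The promoters are shown because class I genes share regulatory letters just upstream of their start sites. RefSeq windows of 300 bases (GRCm38.p6) were found for 8 of the 10 genes, all but Tap2 and Nlrc5. The windows of H2-K1 (chr17:34000298-34000597, reverse strand), H2-D1 (chr17:35262844-35263143, forward strand) and B2m (chr2:122147437-122147736, forward strand) belong to the genes that fell in the mTOR-/- libraries, and that of Tapbp (chr17:33919228-33919527, forward strand) to a gene that did not pass the test. Capitals mark matches, on either strand, to the motifs named below.
H2-K1: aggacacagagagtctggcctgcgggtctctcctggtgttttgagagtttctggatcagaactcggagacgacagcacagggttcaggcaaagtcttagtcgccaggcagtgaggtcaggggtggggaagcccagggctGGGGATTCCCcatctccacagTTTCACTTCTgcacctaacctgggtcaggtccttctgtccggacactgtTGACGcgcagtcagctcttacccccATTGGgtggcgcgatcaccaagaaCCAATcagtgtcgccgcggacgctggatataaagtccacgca
H2-D1: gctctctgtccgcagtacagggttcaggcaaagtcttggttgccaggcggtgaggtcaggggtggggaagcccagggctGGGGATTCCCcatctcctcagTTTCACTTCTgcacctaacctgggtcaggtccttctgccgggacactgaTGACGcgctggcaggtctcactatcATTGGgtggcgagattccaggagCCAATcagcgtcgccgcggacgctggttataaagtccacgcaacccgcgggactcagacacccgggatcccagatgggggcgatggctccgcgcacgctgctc
B2m: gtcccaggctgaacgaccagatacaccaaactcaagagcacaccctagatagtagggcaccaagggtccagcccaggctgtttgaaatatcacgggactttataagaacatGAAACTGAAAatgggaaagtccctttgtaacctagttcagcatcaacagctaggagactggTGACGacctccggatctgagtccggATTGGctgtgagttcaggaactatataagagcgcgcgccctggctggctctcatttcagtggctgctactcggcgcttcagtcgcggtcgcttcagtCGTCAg
Tapbp: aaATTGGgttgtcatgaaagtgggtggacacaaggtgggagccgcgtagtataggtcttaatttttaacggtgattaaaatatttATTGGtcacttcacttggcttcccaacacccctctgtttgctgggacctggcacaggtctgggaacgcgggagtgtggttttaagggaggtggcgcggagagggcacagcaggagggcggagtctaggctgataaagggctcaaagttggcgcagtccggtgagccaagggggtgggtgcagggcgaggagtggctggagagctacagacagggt

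The motifs were chosen after these sequences had been read, and a match is a description of letters. The longer ones were copied from these windows, the interferon response letters TTTCACTTCT and the kappa B letters from H2-K1 and GAAANNGAAA from B2m with its middle letters left free, so each holds in its source by construction. GGGGATTCCC, the kappa B letters, were present in H2-K1 and H2-D1, at -111 and -171 from the start site counted as 0, and in 0.11% of 32851 mouse promoter windows. H2-K1 has another RefSeq start site, whose window (chr17:34000284-34000583) is not shown and holds these letters at -125. TTTCACTTCT was present in 4 of the 8 windows, those of H2-K1, H2-D1, H2-Q4 and H2-M3, against 0.16% of all windows. B2m and H2-T23 held the other interferon motif, GAAANNGAAA, which 3.44% of all windows held. The core TGACG of the X2 box, part of the module on which Nlrc5 acts, was found in 6 of the 8 windows and in 20.81% of all windows. All 8 windows held ATTGG or its complement CCAAT, against 37.41% of all windows. The interferon and X2 letters were also present in genes that did not pass the test. H2-Q4 and H2-M3 held TTTCACTTCT and TGACG, Tap1 held TGACG, and H2-T23 held GAAANNGAAA. Whether the letters go with the change of a gene was not tested. These motifs can overlap or share a window, and absence of a match says only that the letters are not in the 300 bases.

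Total counts were 12317507 to 12903191 in the mTOR-/- libraries and 14066578 to 14768126 in the WT libraries, and 12537 genes were tested. Mtor, the targeted gene, gave 883, 983 and 908 reads in mTOR-/- and 980, 875 and 929 in WT, so its whole-gene counts did not separate the labels (log2 fold change 0.15, standard error (SE) 0.11, adjusted p = 0.442). The paper reports that mTOR depletion in its MDSCs was verified, in a supplementary figure not examined here. Whole-gene counts do not resolve the floxed part of the gene, so its loss in these libraries was not tested. Lyz2, the lysozyme gene of the Cre driver, gave 14675, 11695 and 12718 reads in mTOR-/- and 32743, 57236 and 50648 in WT, so every mTOR-/- library lay below every WT library (log2 fold change -1.68, SE 0.20, edgeR adjusted p = 0.00255). mTOR-/- replicate 3 stood apart with 13889 genes with at least 1 count, against 14709 to 15120 in the other libraries, and without it the log2 fold changes of H2-K1, H2-D1 and B2m were -0.62, -0.73 and -0.62 (edgeR adjusted p = 0.00611, 0.00475 and 0.00633). The label M-MDSC was checked against 7 monocyte markers, Itgam among them, whose summed level was 1790 to 1970 CPM (counts scaled to the TMM-normalized library size) in the mTOR-/- and 1740 to 1940 CPM in the WT libraries. Itgam was listed under 2 gene identifiers, and both were summed. Their means were 832 and 322 CPM in mTOR-/- and 927 and 321 CPM in WT, so Itgam made up most of the sum. Of the 7 markers Cd14 and Csf1r rose, and Ly6c2 fell from a mean of 174 CPM in WT to 87.3 CPM in mTOR-/-. The similar sums therefore do not show that monocyte content was equal. Of 7 markers of T cells and natural killer cells, Cd3e, Cd4, Cd8a and Ncr1 were at 0 in every library, and the 7 summed to at most 1.09 CPM. The 4 mast cell and basophil markers summed to 328 to 404 CPM in the mTOR-/- and 1070 to 1130 CPM in the WT libraries, and 3 of them (Cpa3, Gata2 and Mcpt8) fell. The 7 dendritic cell markers summed to 193 to 263 CPM against 66.8 to 152 CPM, 1 of them (Ccr7) rose and Siglech was at 0 in every library. The 9 neutrophil markers summed to 601 to 748 CPM against 486 to 633 CPM, and among them Ly6g (173, 139 and 198 counts against 12, 35 and 71) and S100a8 rose and Ltf fell. The 8 macrophage markers summed to 548 to 659 CPM against 659 to 738 CPM, and among them Clec4f rose (86, 75 and 179 counts against 0 in WT). The 4 B cell markers summed to 3.01 to 5.86 CPM against 1.78 to 3.14 CPM. The 3 erythroid markers summed to 0.535 to 1.23 CPM against 2.98 to 5.62 CPM, and the 2 stromal ones to 0.244 to 2.29 CPM against 1.07 to 3.27 CPM, with Col3a1 at 0 throughout. The part of these other cell types in the class I values was not tested. In these bulk libraries, fewer cells of a type and less RNA per cell cannot be told apart.

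The main heavy chains and their light chain had lower normalized counts in the mTOR-/- libraries. The alleles of the H2 complex were not analysed, and their part in the heavy chain counts was not tested. H2-D1, H2-K1 and B2m fell to levels 1.62-, 1.47- and 1.65-fold lower, while Tap1, Tap2 and Tapbp did not pass the test. Of the 10 genes, 3 passed an adjusted p of 0.05 in edgeR's quasi-likelihood test, all 3 lower, where 4.04% of all tested genes passed in either direction, 1.87% passed lower and 2.18% passed higher. None reached the fold change of 2 that defines a DEG (differentially expressed gene) in the study's methods, where 1.69% of all tested genes did. The log2 fold change was below 0 in 9 of the 10, with a median of -0.43, beside 0.005 over all tested genes. The mTOR-/- libraries lay below every WT library in 8 of the 10, against 13.9% of all tested genes lower and 28.4% without overlap in either direction. An unadjusted p under 0.05 was given to 8 of the 10 and to 21.2% of all tested genes. The 10 genes were chosen with earlier results of these data known, so these shares are descriptions.

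**Figure D1:**
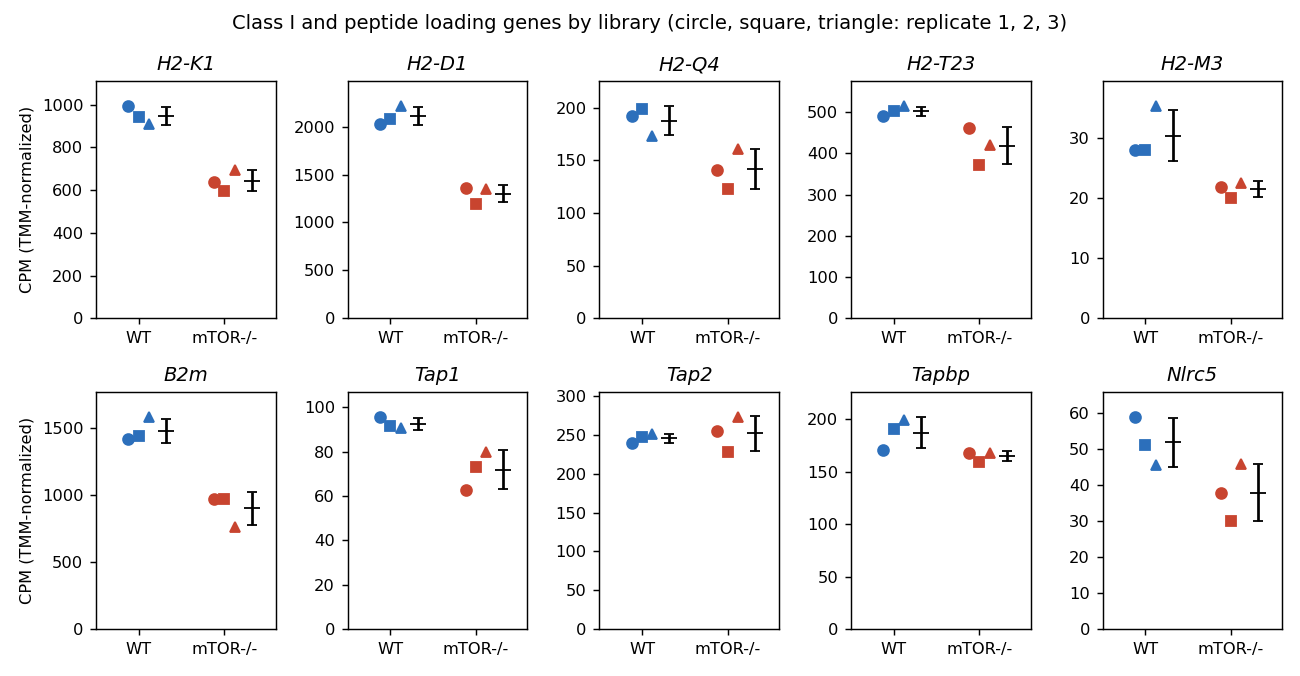
Normalized level of each gene (CPM on the vertical axis, starting at 0) in the 3 WT (blue) and 3 mTOR-/- (red) libraries, with the group mean and SD as black bars. The red points lie below the blue ones for 8 genes, and the groups overlap for Tap2 and Nlrc5.

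H2-D1 (ENSMUSG00000073411, chromosome 17, 35262730 to 35267499, forward strand), the D heavy chain, gave 16665, 15499 and 17695 reads in mTOR-/- and 28593, 30489 and 31063 in WT. Normalized to library size these were 1358, 1196 and 1354 CPM against 2032, 2083 and 2212 CPM, so the groups were far apart compared with their own spread. The mean was 1303 ± 92.07 CPM (SD, n = 3) in mTOR-/- and 2109 ± 92.9 CPM (SD, n = 3) in WT. The log2 fold change was -0.70 (SE 0.10, edgeR adjusted p = 0.00712), a level 1.62-fold lower. H2-K1 (ENSMUSG00000061232, chromosome 17, 33996017 to 34000333, reverse strand), the K heavy chain, had 7850, 7731 and 9074 counts against 13952, 13781 and 12777. In CPM these were 639.8, 596.8 and 694.1 in mTOR-/- and 991.7, 941.4 and 910.0 in WT. Every mTOR-/- value lay below every WT value, and the log2 fold change was -0.56 (SE 0.10, edgeR adjusted p = 0.015). B2m (ENSMUSG00000060802, chromosome 2, 122147686 to 122153083, forward strand), the light chain of class I molecules, had 11874, 12537 and 9887 counts against 19909, 21033 and 22161. In CPM these were 967.7, 967.8 and 756.3 in mTOR-/- and 1415, 1437 and 1578 in WT. The lowest value was that of mTOR-/- replicate 3, the library in which H2-K1 was highest within its group. The log2 fold change of B2m was -0.72 (SE 0.12, edgeR adjusted p = 0.0136), a level 1.65-fold lower.
With omission of single libraries, the log2 fold changes of H2-D1 lay between -0.73 and -0.65, those of H2-K1 between -0.62 and -0.52 and those of B2m between -0.79 and -0.62. The adjusted p was above 0.05 for H2-D1 without WT replicate 3 (0.056), for B2m without WT replicate 1, 2 or 3 (0.0518, 0.0553 and 0.0804), and for H2-K1 without mTOR-/- replicate 1 (0.0557) or WT replicate 1, 2 or 3 (0.0786, 0.0628 and 0.0658). The number of the 10 genes called was 2 without mTOR-/- replicate 1, 4 without mTOR-/- replicate 3, 1 without WT replicate 1 or 2, and 0 without WT replicate 3.

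**Figure D2:**
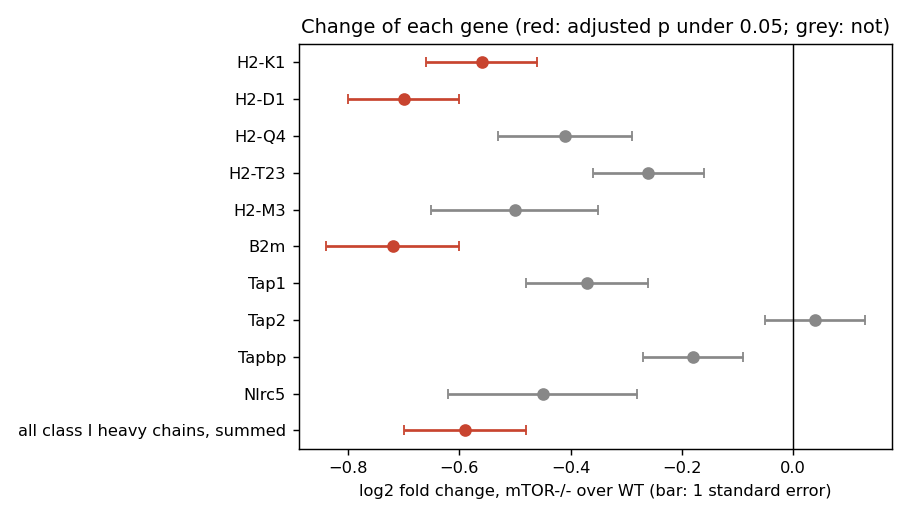
Log2 fold change of mTOR-/- over WT (horizontal axis) for each gene and for the summed class I heavy chains, with 1 standard error as the bar. H2-K1, H2-D1, B2m and the sum (red) passed an adjusted p of 0.05, and Tap2 lies at 0.04.

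The non-classical heavy chains were also at lower values in the mTOR-/- libraries, without passing the test. H2-Q4 (ENSMUSG00000035929, chromosome 17, 35379617 to 35385290), a Qa-region heavy chain, was at 140.4, 122.8 and 160.9 CPM in mTOR-/- and 191.7, 198.5 and 172.6 CPM in WT. Its log2 fold change was -0.41 (SE 0.12, adjusted p = 0.0871), and without mTOR-/- replicate 3 it was -0.52 (adjusted p = 0.0315, edgeR). H2-T23 (ENSMUSG00000067212, chromosome 17, 36029773 to 36032855) encodes Qa-1, which presents leader peptides of other class I chains to NKG2A receptors. It was at 462.4, 372.9 and 421.5 CPM in mTOR-/- and 491.6, 502.4 and 514.2 CPM in WT. The groups did not overlap, but mTOR-/- replicate 1 lay close to the WT range and the log2 fold change was -0.26 (SE 0.10, adjusted p = 0.175). H2-M3 (ENSMUSG00000016206, chromosome 17, 37270220 to 37274484), which binds formylated peptides, was at 21.92, 20.07 and 22.57 CPM against 28.00, 28.07 and 35.33 CPM. Its log2 fold change was -0.50 (SE 0.15, adjusted p = 0.101), with the highest value in WT replicate 3.

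Class I genes resemble each other, so that the counting could divide their reads. Of the 150-base windows in the coding transcripts of GENCODE M21, 1.54% of those of H2-D1 also occurred in H2-Q1 and 0.83% of those of H2-T23 also occurred in Gm7030. None of the windows of H2-K1, H2-Q4, H2-M3, B2m, Tap1, Tap2, Tapbp or Nlrc5 occurred in another gene. Only identical windows of the reference strain were searched. To be independent of how reads were divided among them, the counts of all 29 class I heavy chain genes in the table were summed. Such a sum does not restore reads that were left unaligned or uncounted. It also leaves out H2-L, H2-Q8, H2-Q9, H2-T9 and H2-T18, which were not among the listed genes. Whether reads were lost to a different extent in the 2 groups was not tested. The sum was 2856, 2532 and 2980 CPM in mTOR-/- and 4178, 4164 and 4280 CPM in WT. Its log2 fold change was -0.59 (SE 0.11, adjusted p = 0.0213 with edgeR), so that total heavy chain reads were 1.51-fold lower. The adjusted p of the sum was above 0.05 without mTOR-/- replicate 1 (0.0592) and without WT replicate 1, 2 or 3 (0.091, 0.0779 and 0.128). H2-K1 and H2-D1 together made up 68.6% to 70.8% of heavy chain counts in the mTOR-/- and 72.3% to 72.9% in the WT libraries.

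Other heavy chains of the same family moved in both directions. Of 29 further class I symbols, 10 were tested, 3 fell, 2 rose and 5 did not pass, with a median log2 fold change of -0.45. H2-T22, a ligand of gamma-delta T cells, gave 880, 946 and 860 reads in mTOR-/- and 1393, 1466 and 1415 in WT, which is -0.51 on the log2 scale (SE 0.09, edgeR adjusted p = 0.02). H2-Q6 and H2-Q7, heavy chains of the Qa-2 antigen, had log2 fold changes of -0.92 and -1.07 (adjusted p = 0.0283 and 0.0414 with edgeR). H2-Q7 had 477, 611 and 1068 counts against 1834, 1536 and 1644, and H2-Q6 had 739, 632 and 1136 against 1748, 1713 and 1819. In both genes mTOR-/- replicate 3 was the highest of its group, as it was for H2-K1 and H2-Q4. H2-Q6 and H2-Q7 shared 5.99% and 8.31% of their windows with other genes of the family. The opposite direction was seen in H2-Q1, at 44, 47 and 67 counts against 2, 3 and 2 (at least 19.5-fold higher, taking 3 counts per library as the floor), and in H2-Q2, at 19, 22 and 37 counts while all WT libraries were at 0 (at least 9.63-fold higher). H2-Q1 shared 4.28% of its windows with H2-D1 and H2-Q2. Without mTOR-/- replicate 1 or WT replicate 1 the number of these 10 genes called was 2, and without WT replicate 2 or 3 it was 1.

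None of the peptide transporter and loading genes passed the test. Tap1 (ENSMUSG00000037321, chromosome 17, 34187553 to 34197225) was at 62.59, 72.95 and 79.86 CPM in mTOR-/- and 95.53, 91.33 and 90.67 CPM in WT, a log2 fold change of -0.37 (SE 0.11, adjusted p = 0.11). The groups did not overlap, yet the difference missed the threshold. Tap1 overlaps Psmb9 on the opposite strand, and the strand setting of the counting is not given in the sources used here. Tap2 (ENSMUSG00000024339, chromosome 17, 34203527 to 34216321), its partner subunit, was at 254.8, 228.0 and 272.9 CPM against 239.2, 246.8 and 250.8 CPM. The WT values lay inside the mTOR-/- range, and the log2 fold change was 0.04 (SE 0.09, adjusted p = 0.859). Without mTOR-/- replicate 3 it was -0.03. Tapbp (ENSMUSG00000024308, chromosome 17, 33915899 to 33929288) was at 168.1, 159.5 and 167.9 CPM against 170.7, 191.1 and 199.7 CPM. Its highest mTOR-/- value was just below WT replicate 1, and the log2 fold change was -0.18 (SE 0.09, adjusted p = 0.297). Tapbp overlaps Zbtb22 on the same strand, so reads there may be shared or lost.

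Nlrc5 (ENSMUSG00000074151, chromosome 8, 94472763 to 94527272), the class I transactivator, was at 37.65, 30.03 and 45.82 CPM in mTOR-/- and 58.78, 51.09 and 45.44 CPM in WT. The groups overlapped, since mTOR-/- replicate 3 lay just above WT replicate 3. The log2 fold change was -0.45 (SE 0.17, edgeR adjusted p = 0.175), and it lay between -0.62 and -0.32 with omission of single libraries. Nlrc5 had the widest spread among the 10 genes in the mTOR-/- group, with a coefficient of variation of 20.9%. Across the 6 libraries its log2 CPM ran closest to that of H2-Q4 among the other 9 genes (Pearson's r = 0.957, a description that includes the group difference). The least alike were B2m and Tap2 (r = -0.397), and H2-K1 and H2-D1 were the most alike (r = 0.968). Over all tested genes the 3 patterns nearest to Nlrc5 were those of 1110001J03Rik, Ube2a and Sel1l (r = 0.994, 0.994 and 0.986), and those nearest to B2m were Ubtd1, Tax1bp1 and Amigo2 (r = 0.998, 0.997 and 0.996). With 6 libraries and 12537 genes such values are descriptions.

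Ratios within a library do not depend on its scaling, and 5 were compared. The log2 ratio of Tap1 to Tap2 counts was -2.03, -1.64 and -1.77 in mTOR-/- and -1.32, -1.43 and -1.47 in WT. The groups did not overlap, and the difference was -0.41 (two-sided exact permutation p = 0.1, the least that 3 against 3 can give, and 0.5 adjusted over the 5 ratios). H2-K1 to B2m differed by 0.17 and H2-D1 to B2m by 0.03 (exact permutation test, two-sided, p = 0.5 and 0.9), with overlapping groups in both. The ratio of H2-D1 to H2-K1 was 1.02 ± 0.06 (SD, n = 3) in mTOR-/- and 1.15 ± 0.12 (SD, n = 3) in WT (exact permutation test, two-sided, p = 0.2). Tapbp to Tap1 differed by 0.19 (exact permutation test, two-sided, p = 0.4). With omission of single libraries the difference of Tapbp to Tap1 lay between 0.09 (without mTOR-/- replicate 1) and 0.26, that of H2-D1 to H2-K1 between -0.20 and -0.07 (without WT replicate 3), and that of Tap1 to Tap2 between -0.49 and -0.30. The SD of a ratio reached 0.31, for H2-K1 to B2m in mTOR-/-, and without mTOR-/- replicate 3 the differences of H2-K1 and H2-D1 to B2m were -0.01 and -0.12.

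Levels were compared between genes as CPM per kilobase of annotated exon. In WT the order was B2m (1717 ± 103.1), H2-D1 (817.8 ± 36.02), H2-K1 (322.6 ± 14.02), H2-T23 (174.0 ± 3.897), H2-Q4 (72.27 ± 5.164), Tap2 (64.96 ± 1.557), Tapbp (51.60 ± 4.103), H2-M3 (21.19 ± 2.926), Tap1 (16.89 ± 0.482) and Nlrc5 (6.096 ± 0.789), each a mean ± SD of 3 libraries. No neighbours in this order overlapped between WT libraries. In the mTOR-/- libraries the order differed for H2-Q4 (54.47 ± 7.351) and Tap2 (66.63 ± 5.973), whose ranges overlapped, and H2-M3 and Tap1 overlapped as well. By this measure Tap1 and Tap2, which pair in the protein, were at unequal levels in both groups. The value of Tap1 rests on 5476 bases of annotated exon, where the deposited FPKM imply 11741. Tap1 also overlaps Psmb9, and the division of reads there is not known. The deposited FPKM values gave the same order in WT but other distances. H2-K1 was at 129.4 FPKM and H2-D1 at 673.5 FPKM in WT, and the authors' values imply a length of 7271 bases for H2-K1, whose locus spans 4317 bases and whose exons cover 2938.

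Genes that make peptides for class I or complete the loading complex were looked at from lists. Of 12 genes of loading and trimming none passed the test (median log2 fold change -0.12), and none passed with DESeq2 either. The smallest p belonged to Canx, a chaperone of newly made heavy chains, with a log2 fold change of -0.19 (adjusted p = 0.315), and to Erp29, a protein of the endoplasmic reticulum, with -0.37 (adjusted p = 0.319). Of these 12 genes, 0 had an unadjusted p under 0.05, which 21.2% of all tested genes had. Of 10 proteasome genes 2 fell and none rose (20.0%, beside 4.04% of all tested genes called in either direction). Both, Psmb5 and Psmb6, were constitutive catalytic subunits. Psmb7, another constitutive catalytic subunit, did not pass (log2 fold change -0.30, adjusted p = 0.272, edgeR). Psmb5 counts were 686, 701 and 490 in mTOR-/- and 1410, 1167 and 1226 in WT, a change on the log2 scale of -0.86 (SE 0.16, edgeR adjusted p = 0.0229). Psmb6 counts were 908, 1100 and 913 in mTOR-/- and 1545, 1538 and 1652 in WT, a change on the log2 scale of -0.54 (SE 0.11, edgeR adjusted p = 0.0278). The number of proteasome genes called was 1 without mTOR-/- replicate 1 and 0 without WT replicate 1, 2 or 3. The interferon-induced counterparts of Psmb5 and Psmb6, Psmb8 and Psmb9, lie between Tap1 and Tap2 or overlap Tap1. They had log2 fold changes of -0.27 and -0.34 (adjusted p = 0.131 and 0.327).

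Regulators of class I and genes induced by interferon were looked at next. Of 19 regulators none passed, with a median of 0.04, and DESeq2 called none as well. The smallest p among them belonged to Stat2, an interferon signalling factor, and Ifngr1, a chain of the interferon-gamma receptor, at log2 fold changes of 0.40 and 0.25 (adjusted p = 0.11 and 0.202). Of the 19, 3 had an unadjusted p under 0.05, as did 21.2% of all tested genes. Of 20 interferon-induced symbols 15 were tested, 2 rose and none fell, with a median of 0.07. These 2 are 13.3% of the list, beside 4.04% of all tested genes. Mx1, an antiviral GTPase, had 302, 275 and 412 counts against 100, 161 and 99, a log2 fold change of 1.62 (adjusted p = 0.00641, edgeR). Cxcl10, a chemokine induced by interferon, had 61, 76 and 115 counts against 17, 24 and 6, a log2 fold change of 2.57 (adjusted p = 0.0243, edgeR). The number called in this list was 1 without mTOR-/- replicate 3 or any 1 WT library. Of 11 class I-like symbols 8 were tested. Raet1e, a ligand of the NKG2D receptor, had 0, 1 and 0 counts against 41, 54 and 36 (at least 13.0-fold lower, edgeR adjusted p = 0.00411). H60b, another such ligand, had 30, 49 and 39 counts against 3, 5 and 3, which is 3.53 on the log2 scale (SE 0.56, edgeR adjusted p = 0.00994). Of these 8 genes 2 were called (25.0%, beside 4.04% of all tested genes), and 1 was without any 1 WT library. The annotated spans of these NKG2D ligand genes overlap on chromosome 10, so the division of their reads is uncertain.

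**Figure D3:**
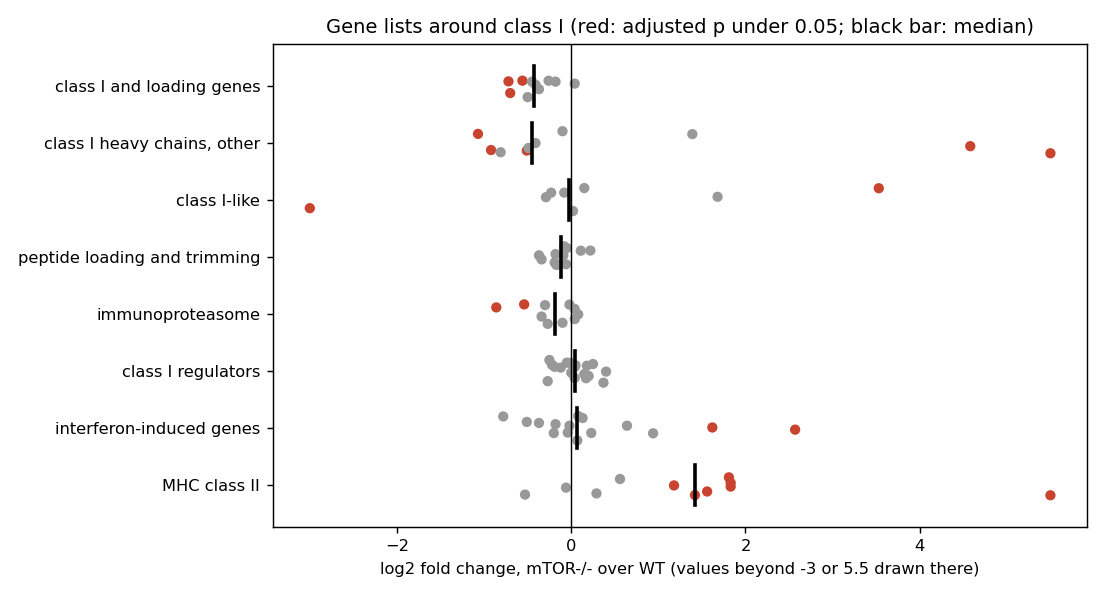
Log2 fold change of mTOR-/- over WT (horizontal axis) for every tested gene of each list, red where the adjusted p was under 0.05, with the list's median as a black bar. The median of the class I and loading genes is -0.43, that of the regulators 0.04 and that of the MHC class II genes 1.42. Values below -3 or above 5.5 are drawn at those limits.

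MHC class II molecules present peptides to CD4+ T cells, and most tested genes of this pathway were at higher values. Besides presenting chains, the list held Ciita, Cd74, the H2-DM and H2-O chains and the pseudogene H2-Ea-ps. Of the 11 tested genes 7 rose (63.6%, beside 4.04% of all tested genes called) and none fell, with a median log2 fold change of 1.42. Among them Ciita, the class II counterpart of Nlrc5, had 117, 153 and 260 counts against 32, 61 and 72, a log2 fold change of 1.83 (SE 0.37, edgeR adjusted p = 0.0278). Without mTOR-/- replicate 1 the number called was 4, and without WT replicate 2 it was 2. H2-Ea-ps, a pseudogene in the C57BL/6 reference, gave 265, 219 and 270 reads in mTOR-/- and none in any WT library (at least 93.7-fold higher). Like H2-Q1 and H2-Q2, it lies in the H2 complex and separated the groups almost completely, although both groups carry the C57BL/6 label. The alleles of the H2 complex in each library were not analysed here, and their part in the counts of the class I genes was not tested.

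Position was described over 110 tested genes of chromosome 17 from the start of H2-K1 at 33996017 to the end of H2-M3 at 37274484. Of 13 class I heavy chains there 7 were called (5 lower, 2 higher), and of 9 class II genes 5 were called, all higher. Of the 86 other genes in the same interval 2 were called, 2.33% beside 4.04% of all tested genes, with a median log2 fold change of 0.02. That count was 5 with upper-quartile factors or without a filter on low counts and 7 with DESeq2. The 2 were Hspa1a, a heat shock gene at -1.34 (adjusted p = 0.00342, edgeR), and Msh5, a meiotic mismatch repair homolog at 2.62 (adjusted p = 0.0183, edgeR). On the rest of chromosome 17, 16 of 565 genes were called. The number of other genes called was 4 without mTOR-/- replicate 3 and 1 without mTOR-/- replicate 1 or any 1 WT library.

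**Figure D4:**
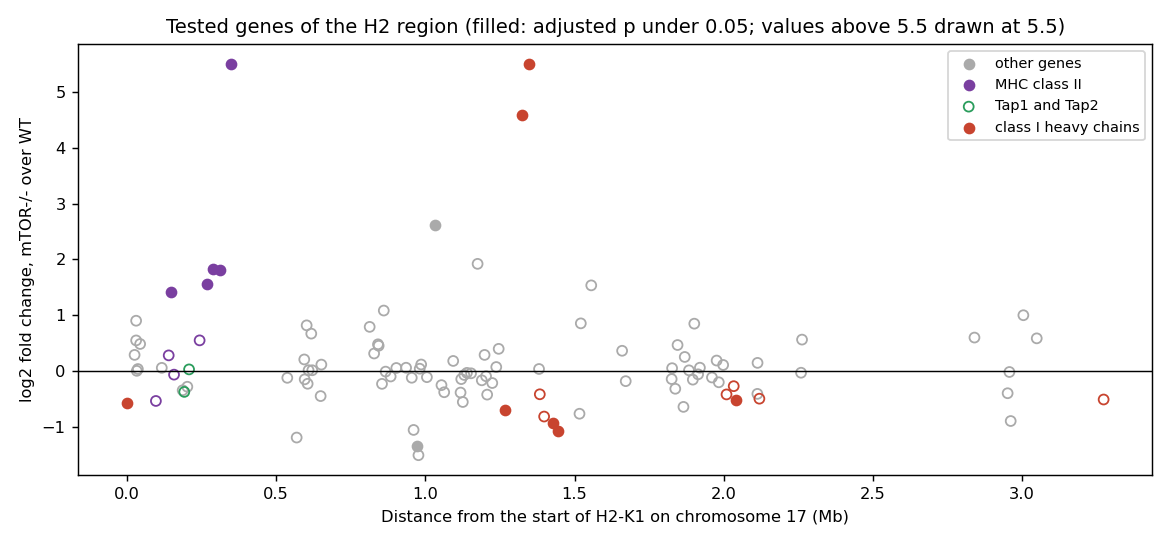
Log2 fold change of mTOR-/- over WT (vertical axis) of 110 tested genes by distance from the start of H2-K1 on chromosome 17 (horizontal axis, Mb), filled where the adjusted p was under 0.05, with values above 5.5 drawn at 5.5. Of 86 other genes (grey) 2 are filled, and 5 class I heavy chains (red) are filled below 0 while 2 are filled above it.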

How the data were processed

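The members and gene lists were chosen with earlier results of these data known. The authors deposited whole-number counts per gene without normalization, and FPKM values that imply the library total and 1 length per gene. Per the study's methods reads were aligned to mm10 with Bowtie2 and counted with HTSeq, whereas the submitters' processing notes name HISAT2 2.0.4, StringTie 1.3.0, GRCm38.p4 and mm9. Strand setting and annotation release are not given in the sources used here. Deposited fold changes and p-values of the authors' own comparison were not used, nor were 24 repeated per-sample columns.

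Counts were analysed with R 4.3.3 and edgeR 4.0.16: filterByExpr (minimum count 10, minimum total 15), TMM normalization, the quasi-likelihood F test and Benjamini-Hochberg adjustment over 12537 genes, tested first on simulated data. Standard errors come from that fit. CPM are TMM-normalized. Every adjusted p in the text without another tool's name is from edgeR. Alternatives used DESeq2 1.42.0, limma 3.58.1 on log2(FPKM + 0.1), RLE and upper-quartile factors, other filters, omission of each library and a replicate block. Total counts were 12317507 to 14768126 per library, and floors of 3 counts cover counting error only. Exon lengths, strands and overlaps are from GENCODE M21 on GRCm38, which held 98.6% of the gene identifiers, and promoters from RefSeq on GRCm38.p6. Named were the 10 genes, Mtor, H2-Ea-ps, up to 5 called genes per list or else the 2 with the smallest p, and the 3 nearest patterns of B2m and Nlrc5. Other genes were named after their values had been seen.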

Additional observations from a re-analysis of the deposited data

How the results depend on the processing

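The log2 fold changes of the 10 genes kept their sign in every alternative run, except that of Tap2, which was -0.03 without mTOR-/- replicate 3. RLE and upper-quartile factors, the other filters and limma on FPKM changed no call of the 10. DESeq2 also called H2-Q4 (-0.41, adjusted p = 0.0297). The labels give replicate numbers without saying whether same-numbered libraries were prepared together. Correlations of deviations from the group means were -0.076 to -0.025 for same-numbered libraries and 0.001 to 0.058 for the others. With so few libraries these values cannot settle whether the numbers pair them. With these numbers as a block, H2-K1 (-0.56), H2-D1 (-0.70), B2m (-0.73) and the summed heavy chains (-0.60) had adjusted p of 0.0753, 0.051, 0.0555 and 0.124, 0 of the 10 genes were called, and 1 gene each was called among proteasome genes, interferon-induced genes and other genes of the H2 region. With a fold change of at least 2, 0 of the 10 were called. The number of DEGs was 212, 357 with DESeq2 and 507 without a fold change threshold. With at least 10 counts in every library, 3 other heavy chains, 1 class I-like gene and 1 interferon-induced gene were called. That filter removed Raet1e, H60b, H2-Q1, H2-Q2 and Cxcl10 before testing. The class I-like gene called under it was therefore neither Raet1e nor H60b. Other genes of the H2 region called were 7 with DESeq2 and 5 with upper-quartile factors or no filter.

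With each library left out in turn, log2 fold changes lay between -0.62 and -0.52 for H2-K1, -0.73 and -0.65 for H2-D1, -0.79 and -0.62 for B2m, -0.52 and -0.33 for H2-Q4, -0.03 and 0.09 for Tap2, and -0.65 and -0.54 for the summed heavy chains. Calls numbered 0 to 4 among the 10 genes, 114 to 229 DEGs, 1 to 6 other heavy chains, 1 to 2 class I-like genes, 0 to 2 proteasome genes, 1 to 2 interferon-induced genes, 2 to 6 class II genes and 1 to 4 other genes of the H2 region. The difference in log2 ratio lay between -0.01 and 0.28 for H2-K1 to B2m and between -0.12 and 0.15 for H2-D1 to B2m, both below 0 without mTOR-/- replicate 3. The cause of these differences between settings was not tested.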

Other observations

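The length by which the deposited FPKM were scaled exceeded the whole locus for 1041 of 17309 genes with counts (6.0%). Among the 10 genes this held for H2-K1, Tap1 and H2-T23. For Tap1 the implied length was 11741 bases, the locus spans 9673 and the exons cover 5476, and for H2-T23 the lengths were 6451, 3083 and 2889. For B2m and H2-M3, implied length and exon length were the same, at 860 and 1438 bases. How the lengths were made is not given in the sources used here.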
